A study of Mus musculus with 2 samples.

Results

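Genomic imprinting restricts the expression of a gene to the copy inherited from the mother or to the copy inherited from the father. Most imprinted genes sit in clusters, in which a differentially methylated control region, set in the germ line, acts on several genes at once, often through a long noncoding RNA or an insulator bound by CTCF. In the embryo, many paternally expressed genes promote growth and many maternally expressed genes restrain it, with the IGF2 pathway as the best known case. The genes described here are 36 imprinted genes listed by symbol and grouped by cluster and by the parental allele they are known to express. Of these, 35 were found among the 34236 gene symbols of the deposited tables, each in 1 row, and the symbol Kcnq1ot1 was not matched. They fall into 16 loci, 8 with several members and 8 with a single member.

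The material was heart from mouse embryos at embryonic day 12.5, of a mixed C57BL/6 and 129S6 strain background, with no treatment. Total RNA was made into libraries with Illumina TruSeq RNA v2 and sequenced, and expression was deposited as FPKM, fragment counts scaled by transcript length and by the number of mapped fragments. There was 1 group of 2 libraries, replicate 1 and replicate 2, so no condition was compared and no p-value was computed, since a sign-flip test over 2 libraries cannot go below an exact two-sided p of 0.5. The labels do not say whether the libraries came from separate embryos or pools, so the SD given with each mean (n = 2) may be technical. Parental alleles were not measured: the expressed allele given for each gene is background knowledge. In bulk heart tissue, fewer cells of a type and less RNA per cell cannot be told apart.

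The deposited FPKM values summed to 388230 in replicate 1 and 382561 in replicate 2, and absolute depth is unknown. All 8 heart markers examined were above 1 FPKM in both libraries, with means from 54.1 to 4314. None of 6 liver markers and none of 6 skeletal muscle markers reached that level in both libraries, and 4 of 8 neuronal markers did, with summed values of 21.1 and 22.9. Of 11 trophoblast markers, only Hand1 did, which is also a heart gene, and 4 were listed at 0. The liver markers Afp and Alb passed 1 FPKM in replicate 2 only, and the liver markers summed to 2.12 in replicate 1 and 3.50 in replicate 2. All 6 red cell markers were high, led by Hbb-y, and summed to 23493 and 22494, so embryonic blood RNA was present in both libraries. The part of blood RNA in the levels given here was not tested.

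The cardiac levels of the imprinted genes spanned a wide range, from 0.0295 FPKM for Rasgrf1 to 3505 for H19. At least 1 FPKM in both libraries, taken here as detected, was reached by 26 of the 35 members, against 36.2% of all 34236 symbols and 52.4% of the 22240 protein-coding symbols. The median level of the members was 19.02 FPKM, beside 0.118 over all symbols and 1.68 over protein-coding symbols. H19, Igf2 and Mest exceeded 1000 FPKM, a level reached by 24 symbols in all. Gnas, Grb10, Cdkn1c, Plagl1 and Meg3 lay between 100 and 1000 FPKM. A further 13 members lay between 10 and 100, and Impact, Peg12, Mirg, Zdbf2 and Mkrn3 lay between 1 and 10. The 9 members below 1 FPKM were Slc22a18, Usp29, Nap1l5, Phlda2, Magel2, Rtl1, Dio3, Ascl2 and Rasgrf1. Together the members made up 2.21% of the summed FPKM in each library, and H19 and Igf2 alone held 61.7% of the members' sum in replicate 1 and 62.3% in replicate 2.

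**Figure D1:**
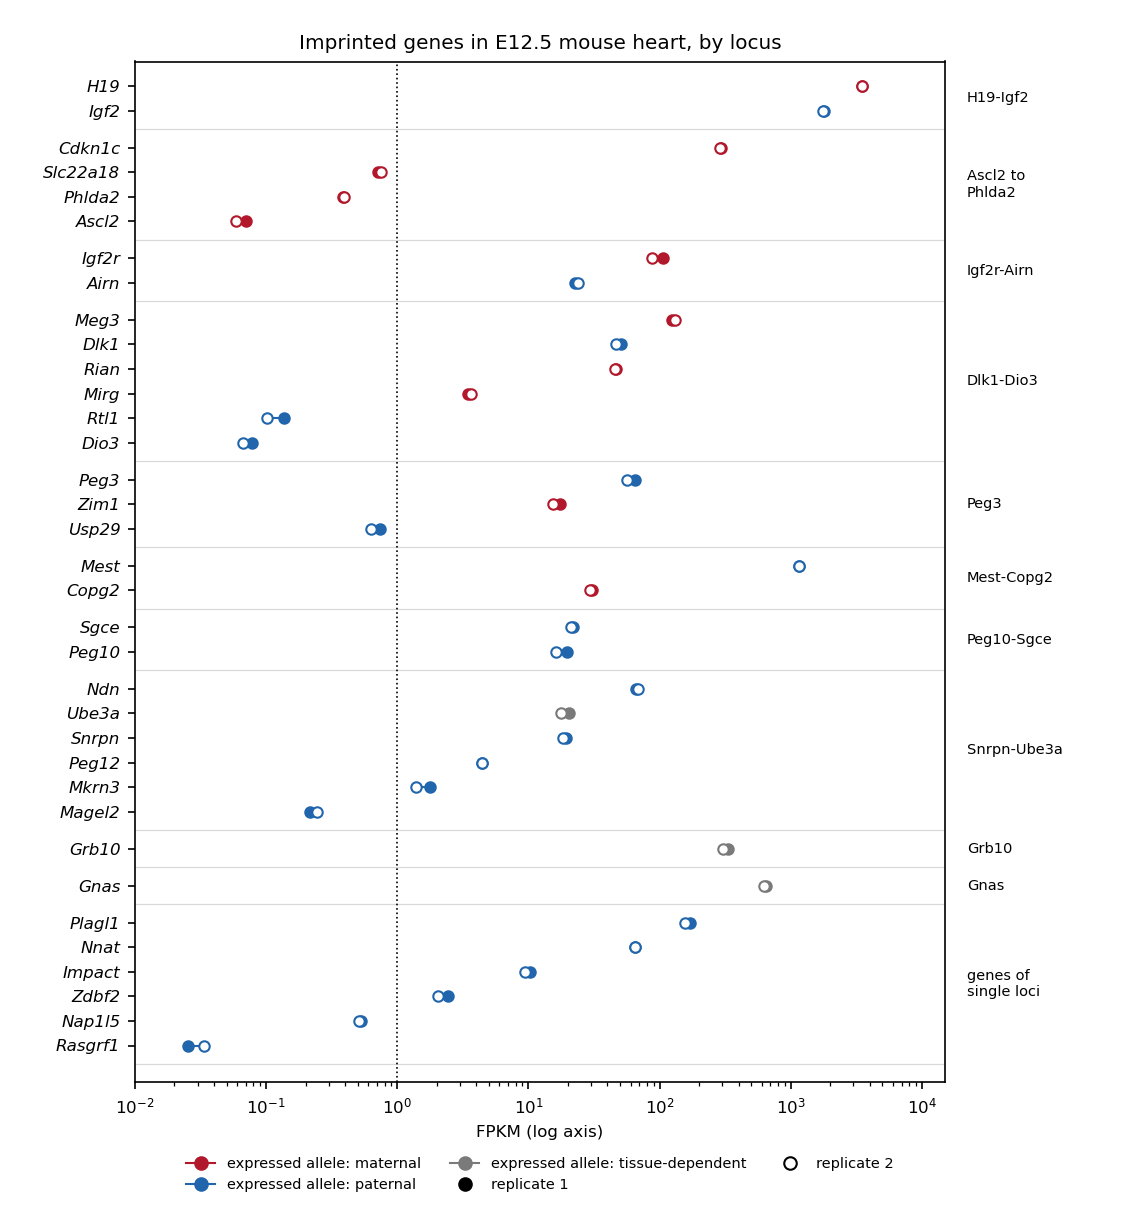
FPKM of each of the 35 members on a log axis, grouped by locus, with a filled point for replicate 1 and an open point for replicate 2. Colour gives the allele known to be expressed, and the dotted line marks 1 FPKM. Within most loci the distance between members is much larger than the distance between the 2 libraries.

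**Figure D2:**
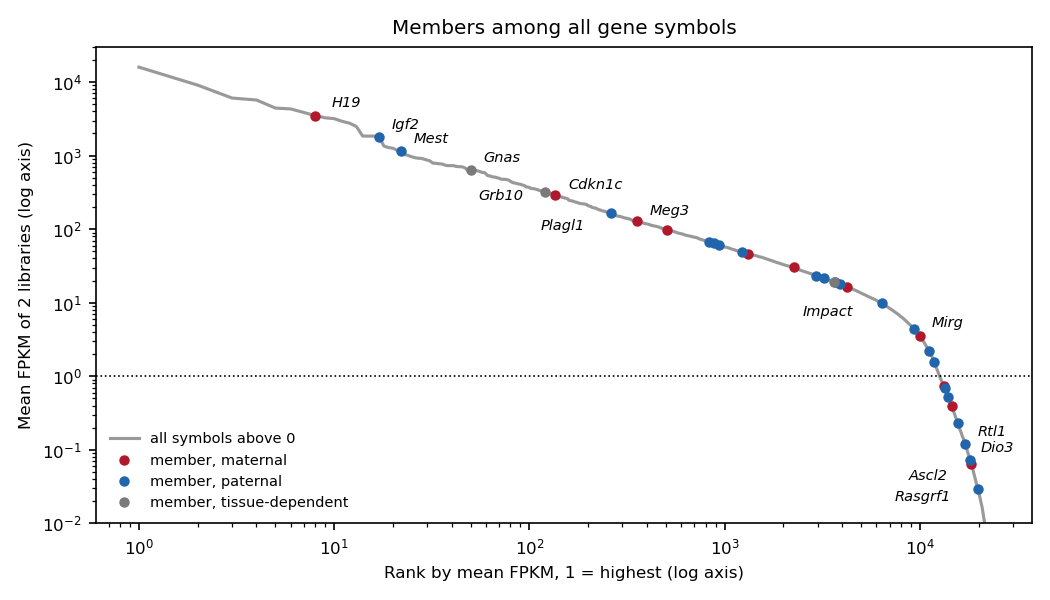
Mean FPKM of the 2 libraries (log axis) against rank among gene symbols (log axis, rank 1 highest), with the line showing all symbols above 0.01 FPKM and points showing the members. H19 ranks 8, Igf2 17 and Mest 22, whereas Rasgrf1 lies at 0.0295 FPKM.

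The H19 and Igf2 pair, on distal chromosome 7, was the most abundant locus. H19 is a maternally expressed noncoding RNA, and Igf2 encodes the fetal growth factor IGF2 and is expressed from the paternal copy. A shared imprinting control region with CTCF sites and a common set of enhancers govern both. H19 (mm9 chr7:149761434-149764048, minus strand) was measured at 3502 FPKM in replicate 1 and 3508 in replicate 2. Igf2 (chr7:149836673-149852721, minus strand) was at 1802 and 1769. The genes lie 72.6 kb apart, and H19 exceeded Igf2 by 1.94 and 1.98 times, a log2 ratio of 0.97 ± 0.02 (SD, n = 2). Every log2 value given here was computed on FPKM + 1. The locus held 1.37% and 1.38% of all summed FPKM. The antisense gene Igf2as overlaps Igf2 by 7.12 kb and was at 16.0 and 16.2 FPKM. The library kit does not mark strand, so reads from the overlap cannot be assigned to either gene by strand. The Igf2as value may therefore hold reads of Igf2.

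H19, Igf2 and Mest each hold a microRNA gene. The mature sequences are shown because they are the known small products of the 3 most abundant members. They are taken from RefSeq on GRCm38.p6, 5′ to 3′, and the capitals mark the seed, bases 2 to 8. The first pair lies in H19, the second in Igf2 and the third in Mest.
mmu-miR-675-5p: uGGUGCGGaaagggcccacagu
mmu-miR-675-3p: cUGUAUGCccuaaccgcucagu
mmu-miR-483-5p: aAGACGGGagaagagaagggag
mmu-miR-483-3p: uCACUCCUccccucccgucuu
mmu-miR-335-5p: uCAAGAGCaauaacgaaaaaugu
mmu-miR-335-3p: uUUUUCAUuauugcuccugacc
The 6 seeds are all different. The deposited tables list the 2 microRNA rows inside the H19 and Igf2 locus and the 1 inside the Mest and Copg2 locus at 0, as they do nearly all microRNA rows: 10 of 1626, or 0.615%, were above 0. Library products were selected between 350 and 650 bp, so mature microRNAs were not measured and the host gene's FPKM is not their level.

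Farther along chromosome 7, the domain named after Kcnq1ot1 had 1 abundant member, Cdkn1c. In this domain a paternally expressed antisense RNA, Kcnq1ot1, silences maternally expressed genes, several of them important in the placenta. Cdkn1c, which encodes the cell-cycle inhibitor p57KIP2, was at 292 and 288 FPKM (290 ± 2.36; chr7:150644255-150646955, minus strand). Slc22a18, which encodes a membrane transporter, starts 12.7 kb away (chr7:150659626-150685239, plus strand) and was at 0.713 and 0.749. Phlda2, a growth restrainer of the placenta (chr7:150687450-150688446, minus strand), was at 0.386 and 0.395. All 3 genes lie within 44.2 kb, and in both libraries only Cdkn1c was above 1 FPKM. Ascl2, a transcription factor of trophoblast progenitors (chr7:150152727-150155169, minus strand), was at 0.0698 and 0.0593. The plain FPKM ratio of Cdkn1c in replicates 1 and 2 was 409 and 385 to Slc22a18, 755 and 731 to Phlda2, and 4181 and 4866 to Ascl2. On log2(FPKM + 1), which understates ratios to members below 1 FPKM, these were 7.39 ± 0.03, 7.71 ± 0.02 and 8.09 ± 0.002. The pseudocount also shrank these SDs, most for Ascl2, whose plain ratio moved from 4181 to 4866. With no pseudocount the log2 ratios were 8.63, 9.54 and 12.14. Kcnq1, the host of the unmatched antisense RNA, was at 4.66 and 4.95 FPKM.

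The Igf2r locus on chromosome 17 holds a receptor and its antisense repressor. Igf2r encodes the receptor that carries IGF2 to lysosomes for degradation and is maternally expressed, whereas the noncoding RNA Airn starts inside Igf2r and is paternally expressed. Igf2r (chr17:12875272-12962530, minus strand) was at 106 FPKM in replicate 1 and 87.4 in replicate 2 (96.8 ± 13.3). Airn (chr17:12934177-13052988, plus strand) was at 22.6 and 23.9 (23.3 ± 0.910). Igf2r was lower in replicate 2 and Airn was not, so their ratio moved from 4.70 to 3.65, a log2 ratio of 2.00 ± 0.25. The genes overlap by 28.4 kb on opposite strands. The TruSeq RNA v2 kit does not mark strand, so reads from this stretch cannot be assigned to either gene by strand, here or in the overlapping pairs described further on. The ligand Igf2 exceeded its receptor Igf2r by 17.0 and 20.3 times, a log2 ratio of 4.20 ± 0.18.

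**Figure D3:**
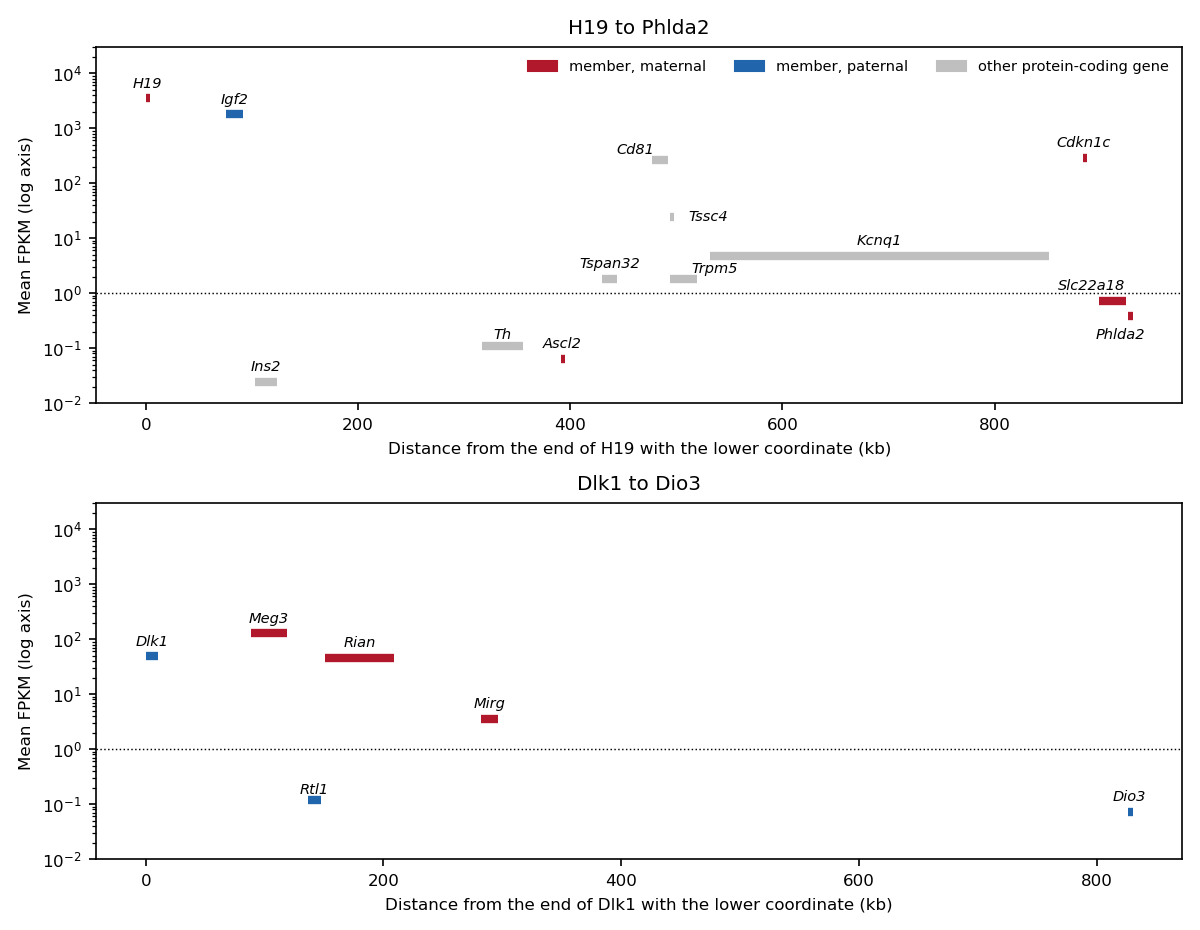
Mean FPKM (log axis) of the genes from H19 to Phlda2 on chromosome 7 and from Dlk1 to Dio3 on chromosome 12, against distance in kb along mm9. Each segment spans a gene, genes under 4 kb are drawn 4 kb wide, and genes below 0.01 FPKM fall outside the panels. Cdkn1c at 290 FPKM stands beside Slc22a18 and Phlda2, both below 1, and the 3 noncoding RNAs Meg3, Rian and Mirg decline in the order of their positions.

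In the Dlk1 to Dio3 domain of chromosome 12, the maternal noncoding RNAs and Dlk1 were detected and the other protein-coding members were not. Meg3, Rian and Mirg are maternally expressed noncoding RNAs that are commonly viewed as parts of a long transcription unit, and Dlk1, Rtl1 and Dio3 are paternally expressed protein-coding genes. Meg3 (chr12:110779211-110809936, plus strand) was at 124 and 131 FPKM (127 ± 5.09). Rian (chr12:110842155-110899919, plus strand), a host of small nucleolar RNAs, was at 46.6 and 46.1, and Mirg (chr12:110973191-110987665, plus strand), a host of microRNAs, was at 3.48 and 3.67. The level was thus lower at each step along the strand, with a log2 ratio of 1.44 ± 0.07 for Meg3 to Rian and of 3.37 ± 0.06 for Rian to Mirg.

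Dlk1, which encodes a membrane protein related to Notch ligands, was at 51.2 and 46.1 FPKM (48.6 ± 3.56; chr12:110691033-110701546, plus strand). Its level was close to that of Rian and below that of Meg3, which exceeded it by a log2 ratio of 1.37 ± 0.16. Rtl1, a retrotransposon-derived gene needed for placental capillaries (chr12:110827404-110838540, minus strand), was at 0.136 and 0.101. Dio3, which encodes a thyroid-hormone inactivating enzyme (chr12:111517278-111519307, plus strand), was at 0.0776 and 0.0668. The domain spans 828 kb in the files, of which 530 kb separate Mirg from Dio3, and its highest and lowest members differed 1762-fold.

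The same domain holds one of the densest groups of microRNA genes in the mouse genome. RefSeq on GRCm38.p6 lists 114 mature entries from 61 genes between Dlk1 and Dio3, and 57 of the 61 genes are on the plus strand, the strand of Meg3, Rian and Mirg. Within the RefSeq spans of the members, Mirg holds 10 of the genes, Rian 3 and Meg3 2. Rtl1 holds 15, of which 13 lie on the strand opposite to it. The entries give 113 distinct sequences with 104 different seeds, since the 5p sequence of miR-3070 is listed for 2 genes. The sequences below show how this group repeats itself: 9 seeds occur in more than 1 distinct sequence and cover 18 of them, of which 8 are printed as 4 consecutive pairs. Capitals mark the seed.
mmu-miR-379-5p: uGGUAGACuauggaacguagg
mmu-miR-1193-5p: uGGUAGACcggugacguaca
mmu-miR-379-3p: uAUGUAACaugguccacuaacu
mmu-miR-411-3p: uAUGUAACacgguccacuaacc
mmu-miR-494-5p: aGGUUGUCcguguugucuucuc
mmu-miR-410-5p: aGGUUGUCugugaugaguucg
mmu-miR-453: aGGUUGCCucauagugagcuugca
mmu-miR-496a-5p: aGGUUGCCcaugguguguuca
A further pair is shown because its genes lie antisense to Rtl1, whose transcript they are known to target with full complementarity.
mmu-miR-127-3p: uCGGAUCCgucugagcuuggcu
mmu-miR-433-3p: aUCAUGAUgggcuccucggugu
All 57 microRNA rows and 23 small nucleolar RNA rows that the tables place inside the domain were listed at 0 in both libraries. In all rows of the files, 78 of 1557 small nucleolar RNA rows, or 5.01%, were above 0. The zeros are thus no measure of small RNA levels in the domain.

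At the Peg3 locus on proximal chromosome 7, the zinc-finger genes were detected and Usp29 was not. Peg3, a paternally expressed zinc-finger gene (chr7:6656603-6683132, minus strand), was at 65.4 and 56.5 FPKM (61.0 ± 6.33). Zim1, its maternally expressed zinc-finger neighbour (chr7:6628154-6649161, minus strand), was at 17.5 and 15.4. Both were lower in replicate 2, and their ratio stayed near 3.74 and 3.66, a log2 ratio of 1.83 ± 0.03. Usp29, which encodes a ubiquitin-specific protease and is paternally expressed (chr7:6913871-6916480, plus strand), was at 0.742 and 0.630. Peg3 exceeded Usp29 by 88.2 and 89.7 times.

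Peg3 and Usp29 start head to head in RefSeq on GRCm38.p6, with 163 bases between their start sites, at chr7:6730420-6730582. The stretch is printed from the plus strand because both genes start from it in opposite directions. The capitals mark its 5 CG dinucleotides, the bases that DNA methylation acts on, and its GC content is 62.0%.
Peg3 to Usp29: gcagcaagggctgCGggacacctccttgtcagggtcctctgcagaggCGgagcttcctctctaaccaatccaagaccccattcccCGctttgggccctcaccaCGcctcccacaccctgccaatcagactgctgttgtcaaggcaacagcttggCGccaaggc
The gene model of Usp29 in the tables spans 2.61 kb and begins 231 kb from Peg3, whereas the RefSeq gene spans 237 kb. The Usp29 value is that of the short model, which does not reach the shared start region.

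Mest stood far above its neighbour Copg2 on chromosome 6. Mest, a paternally expressed gene for a hydrolase-fold protein of mesodermal tissues (chr6:30673547-30698457, plus strand), was at 1149 and 1146 FPKM (1147 ± 1.75). Copg2, which encodes a coatomer subunit and is maternally expressed (chr6:30697554-30846794, minus strand), was at 30.7 and 29.7. The ratio was 37.5 and 38.6, a log2 ratio of 5.20 ± 0.03. The genes meet tail to tail and overlap by 0.904 kb, and their longest GENCODE transcripts share 912 bases, 34.2% of that of Mest and 23.0% of that of Copg2. Fragments of the shared bases cannot be told apart between Copg2 and Mest.

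Elsewhere on chromosome 6, Peg10 and Sgce differed little. Sgce encodes the membrane protein epsilon-sarcoglycan, Peg10 is a retrotransposon-derived gene essential for the placenta, and both are paternally expressed from starts that lie close together. The files leave 0.101 kb between the ends of Sgce (chr6:4624350-4697204, minus strand) and Peg10 (chr6:4697306-4710517, plus strand). Sgce was at 21.9 and 21.1 FPKM, and Peg10 at 19.5 and 16.1. The log2 ratio of Peg10 to Sgce was -0.15 in replicate 1 and -0.36 in replicate 2 (-0.26 ± 0.15), and its mean was within 0.32, the 95th percentile of the absolute log2 difference of single genes between the libraries.

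In the Snrpn to Ube3a region of chromosome 7, the counterpart of the human Prader-Willi and Angelman region, Ndn was the most abundant member. Ndn encodes necdin, a growth suppressor of the MAGE family, and was at 66.4 and 68.6 FPKM (chr7:69493163-69494814, plus strand). Snrpn, which encodes a spliceosomal protein (chr7:67127388-67285105, minus strand), was at 19.5 and 18.4. Ube3a, a ubiquitin ligase gene whose imprinting is known from neurons (chr7:66484122-66562097, plus strand), was at 20.3 and 17.8. Snrpn and Ube3a were the closest of the 20 pairs of members compared: the log2 ratio of Snrpn to Ube3a was -0.06 and 0.04, so neither was higher in both libraries.

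The 4 intronless genes at the far end of this region differed widely although they lie side by side. Ndn was followed by Peg12 at 4.46 and 4.44 FPKM (chr7:69606757-69609396, minus strand) and by Mkrn3, a RING-finger gene, at 1.78 and 1.38 (chr7:69562479-69565039, minus strand). Magel2, a MAGE-family gene 27.1 kb from Ndn (chr7:69521865-69526526, plus strand), was at 0.216 and 0.242. The log2 ratio of Ndn was 3.65 ± 0.04 to Peg12, 4.74 ± 0.19 to Mkrn3 and 5.80 ± 0.01 to Magel2. Without the pseudocount the ratio to Magel2, which is below 1 FPKM, was 8.21 on the log2 scale, or 308 and 283 times. The pseudocount also shrank the SD of 0.01 for Magel2. All 4 are paternally expressed. The 22 microRNA rows and 166 small nucleolar RNA rows of the region were listed at 0. So were nearly all rows of these types: 0.615% of microRNA rows and 5.01% of small nucleolar RNA rows were above 0. The zeros are thus no measure of small RNA levels in the region.

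Among the members treated as single loci, 3 with roles in growth signalling or its control were abundant. Gnas, which encodes the stimulatory G-protein subunit and has transcripts of either parental origin (chr2:174109821-174172245, plus strand), was at 645 and 627 FPKM (636 ± 12.6). Grb10, an adaptor that dampens insulin and IGF receptor signalling (chr11:11830511-11938686, minus strand), was at 331 and 307. Plagl1, a zinc-finger transcription factor known as a regulator of other imprinted genes (chr10:12810497-12851500, plus strand), was at 171 and 157 (164 ± 10.3). All 3 were slightly lower in replicate 2. Gnas is crossed on the other strand by the gene models AL593857.1, at 111 and 106 FPKM, and Nespas, at 0.335 and 0.231.

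Nnat, which encodes the small membrane protein neuronatin (chr2:157385814-157388258, plus strand), was at 64.4 and 65.0 FPKM. It lies inside Blcap on the opposite strand, which was at 17.8 and 17.9. Impact, an inhibitor of the GCN2 stress kinase pathway, was at 10.2 and 9.34. Zdbf2, a zinc-finger gene linked to growth (chr1:63319839-63361150, plus strand), was at 2.43 and 2.06. Nap1l5, a nucleosome assembly protein family gene inside an intron of Herc3 (chr6:58855228-58857120, minus strand), was at 0.532 and 0.510, while Herc3 was at 21.7 and 19.3. Rasgrf1, a Ras exchange factor best known from brain (chr9:89804613-89921814, plus strand), was the lowest member at 0.0254 and 0.0336. Its ratio of 1.32 between the libraries is close to 1.33, the estimated ratio of what a single fragment is worth in them, the ratio that equal numbers of fragments in both would give.

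Grouped by the allele known to be expressed, 8 of 11 maternally expressed members and 15 of 21 paternally expressed members were detected, which are similar shares. Over all symbols 36.2% were detected, and over protein-coding symbols 52.4%. The maternal group ran from 0.0645 to 3505 FPKM with a median of 30.2, and the paternal group from 0.0295 to 1786 with a median of 17.8. Each group had 3 members above 100 FPKM: H19, Cdkn1c and Meg3 on the maternal side, and Igf2, Mest and Plagl1 on the paternal side. The 3 members with tissue-dependent imprinting, Ube3a, Grb10 and Gnas, were all detected. The ranges of the maternal and paternal groups overlapped over nearly their whole width.

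Of the 20 pairs of members compared, 18 differed by more than the 0.32 limit in both libraries and in the mean. That limit is the spread of single genes between the libraries, and pairs of other genes were not compared. The count of 18 therefore describes these pairs and does not set them apart from other genes. The exceptions were Peg10 with Sgce, where replicate 2 was past the limit and replicate 1 was not, and Snrpn with Ube3a. The largest mean log2 ratio was the 8.09 of Cdkn1c to Ascl2, or 12.14 with no pseudocount. The rule asks for the same order in both libraries, so none of the 18 could have its order turned.

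**Figure D4:**
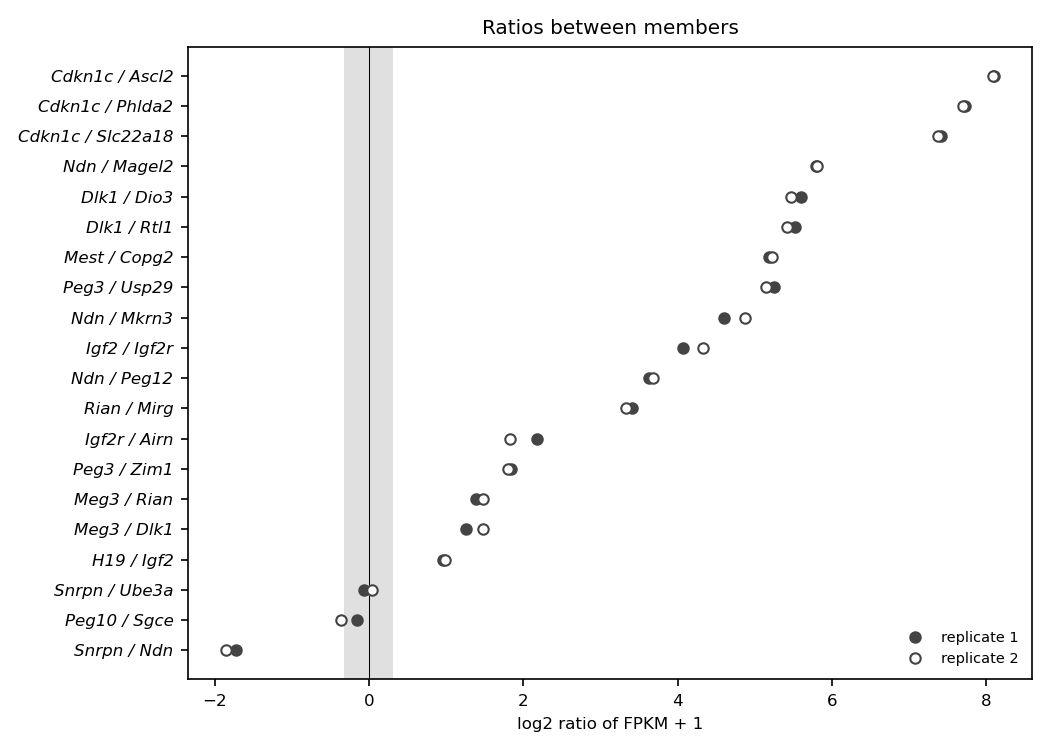
Log2 ratio of FPKM + 1 for 20 pairs of members, with a filled point for replicate 1 and an open point for replicate 2. The grey band spans 0.32 on either side of 0, the 95th percentile of single-gene differences between the libraries, and 18 pairs lie outside it in both libraries. Ratios to members below 1 FPKM are understated on this scale, and their spread between the libraries can be too.

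Like most genes, the members differed little between the libraries. None of the 22 members with a mean of at least 5 FPKM differed 2-fold between replicate 1 and replicate 2, against 0.347% of all 8924 symbols at that level. Among the 26 members with a mean of at least 1 FPKM, 20 were lower in replicate 2, against 66.6% of 12637 symbols, and the median log2 difference of replicate 2 from replicate 1 was -0.05 in the members and -0.04 in all. The member differences ran from -0.28 for Igf2r to 0.08 for Meg3. None of the 26 passed the 0.32 limit, which 632 of the 12637 symbols passed. With so few passing among all genes, these counts do not set the members apart. Peg10, Mkrn3 and Peg3 followed Igf2r at the low end.

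Transcript length moved with these small differences. Of the 9 members with a GENCODE transcript of at least 5 kb, 8 were lower in replicate 2, with a median log2 difference of -0.17. They were Igf2r, Peg10, Peg3, Ube3a, Zim1, Zdbf2, Plagl1 and Grb10, and Meg3 was the exception. Over all 2789 genes of that length, 83.4% were lower in replicate 2 and the median was -0.08. Among 15 shorter members, 11 were lower, with a median of -0.03, beside 62.1% and -0.02 over 9653 genes. Rian and Mirg had no matched length. After each member was set against genes of like length, 15 of 24 were lower in replicate 2 and differences ran from -0.20 for Mkrn3 to 0.19 for Meg3.

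**Figure D5:**
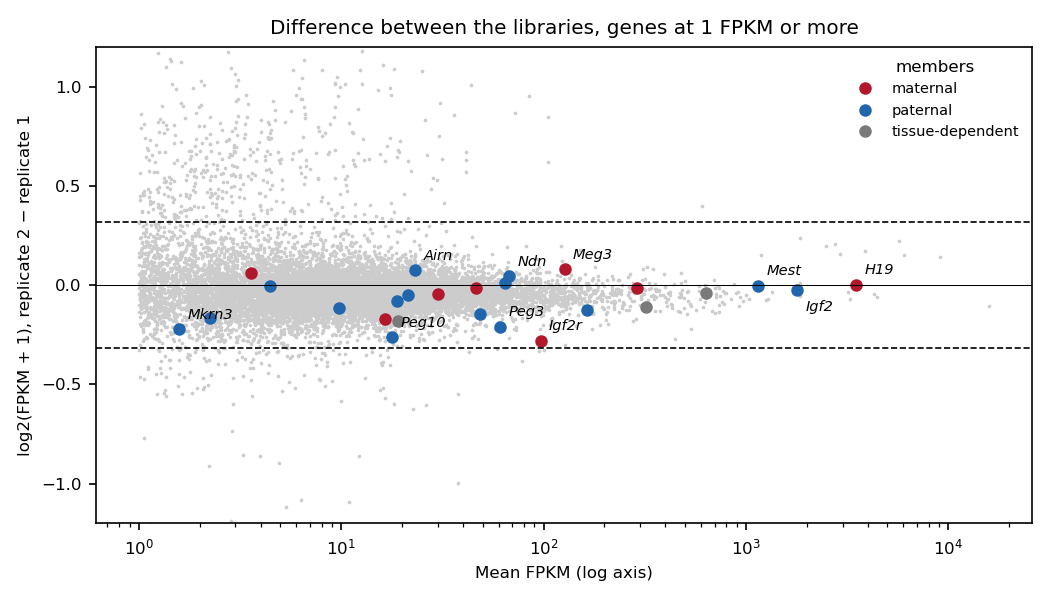
Log2 difference of replicate 2 from replicate 1, on FPKM + 1, against mean FPKM (log axis) for genes at 1 FPKM or more, with members coloured by expressed allele and other genes in grey. The dashed lines mark 0.32 on either side of 0, and all 26 members lie between them; grey genes beyond 1.2 on either side fall outside the axis.

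The genes next to the imprinted loci were measured for comparison. The nearest protein-coding gene outside the imprinted lists was taken on each side of every locus, giving 32 neighbours. Of these, 19 were detected, or 59.4%, and their median was 1.88 FPKM, beside 19.02 for the members. Both values were near those of all protein-coding symbols, of which 52.4% were detected with a median of 1.68 FPKM. Beside H19 and Igf2, Mrpl23, a mitochondrial ribosomal protein gene, was at 1.95 ± 0.743 FPKM and Ins2, an insulin gene, at 0.0247 ± 0.0349. Around Dlk1 and Dio3, Wdr25 was at 1.81 and Ppp2r5c, a phosphatase subunit gene, at 38.6. Beside Peg10 and Sgce, the collagen gene Col1a2 was at 101 and the paraoxonase gene Pon1 at 0.0230. Beside Mest and Copg2, Tsga14 was at 4.74 and Tsga13 at 0.0582. Neighbours thus ranged from 0 to the 373 FPKM of Eef1b2, a translation elongation factor gene next to Zdbf2.

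Other genes of the same biology were read from 3 further lists. Their counts stand beside the 36.2% of all symbols and 52.4% of protein-coding symbols that were detected. Of 18 genes with roles in setting or maintaining imprints, 16 were detected, with a median of 15.8 FPKM. The highest were Trim28, the corepressor recruited to imprinted control regions, at 152 ± 2.56, followed by the histone methyltransferase gene Ehmt2 at 37.5, the DNA methyltransferase gene Dnmt3a at 34.9, Uhrf1 at 32.9 and Ezh2 at 28.0. The maintenance methyltransferase gene Dnmt1 was at 22.2, Ctcf at 27.1 and Zfp57, which binds methylated control regions, at 23.9. The lowest were Dnmt3b at 2.08, the germline cofactor gene Dnmt3l at 0.0271 and Dppa3, which was listed at 0.

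Of 18 further genes of the IGF axis, 14 were detected, with a median of 13.1 FPKM. Binding proteins led, with Igfbp5 at 194, Igfbp4 at 95.8 and Igfbp2 at 35.9, followed by the RNA-binding protein gene Igf2bp2 at 34.8 and M6pr, the other mannose 6-phosphate receptor gene, at 32.1. The ligand Igf1 was at 20.1, and the signalling receptors Igf1r and Insr were at 10.1 and 8.63, all below the 96.8 of the clearance receptor Igf2r. The lowest were Igfbp1 at 0.0341, Ins2 and Ins1, the last listed at 0.

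Of 45 other genes reported as imprinted in some mouse tissue, 42 were found and 30 detected, with a median of 9.69 FPKM. The highest were Cd81, a tetraspanin gene of the Kcnq1ot1 domain, at 264, Nap1l4 at 81.7, Commd1 at 75.4, the amino acid transporter gene Slc38a4 at 67.8, and Xist, the RNA of X inactivation, at 53.6. Cd81 lies between Ascl2 and Cdkn1c, so the domain held abundant transcripts other than Cdkn1c. The lowest were Mas1, which overlaps Airn by 19.04 kb on the opposite strand, at 0.0363, and Kcnk9 and Slc22a2, both listed at 0.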

How the data were processed

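The tools GSNAP, Cufflinks and Cuffnorm and the builds mm9 and hg19 appear, per the submitters' processing notes, with no version or role. The sources used here give no annotation, strand setting or rule for multiply mapped reads. The authors deposited 1 table of FPKM per library, with 37620 gene rows and 34236 symbols. Gene ends on chromosome 1 reach 197054592, past the 195323493 of GENCODE M21 on GRCm38, so coordinates are given as mm9. No counts were used here, and the spread between the 2 libraries is the only measure of precision given.

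Rows were matched by exact symbol, and rows of a repeated symbol, none of them a member, were summed. Means and SD were computed per gene, and log2 values with a pseudocount of 1 FPKM. Detection meant 1 FPKM in both libraries. The 2-fold rule used a mean of at least 5 FPKM. All members were named, and of each further list the 5 highest and 3 lowest, with Igf1, Igf1r, Insr, Dnmt1, Ctcf and Zfp57 added after their values were seen. Members and lists were chosen with earlier results of these data known.

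The worth of 1 fragment in replicate 2 was 1.33 times that in replicate 1, from the commonest ratio among 2625 genes below 0.1 FPKM, of which 484 lay within 0.05 log2 units of it. BLAST 2.17.0 matched member transcripts from GENCODE M21 to other genes at 98% identity over at least 75 bases, and 11 of 33 members had a match. In 6 this covered over 10% of the length. Copg2 and Mest matched each other, and the symbols matched by Cdkn1c, Igf2, Ube3a and Usp29 were not found in the files. RefSeq sequences are from GRCm38.p6 and were not placed on mm9. Python 3.11.15, NumPy 2.4.6 and pandas 2.3.3 were used, and the scripts were tested on simulated data.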

Additional observations from a re-analysis of the deposited data

How the results depend on the processing

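Alternatives were a pseudocount of 0.1 or none, detection at 0.5 or 2 FPKM, a filter on low values, other scalings and leaving out each library. Detected members numbered 25 to 29. No member differed 2-fold between the libraries with a pseudocount of 0.1, with a mean of at least 1 FPKM or no filter, with replicate 2 rescaled by the median ratio, with the highest row of a symbol or after length centring; the other alternatives were not run for this count. From 18 to 19 pairs passed the limit, but 12 of 20 ratios moved by more than their SD with a pseudocount of 0.1 and 12 with none: Cdkn1c to Ascl2 went from 8.09 to 10.79 and 12.14, and Dlk1 to Dio3 from 5.53 to 8.14 and 9.40. The median log2 level of the members moved from 4.32 to 5.60 when members under 1 FPKM were left out, and lay between 4.28 and 4.41 without either library. The maternal median was 4.92 in place of 4.96 with a pseudocount of 0.1. The members' share was 2.42% without the mitochondrial genes and 2.25% over protein-coding and long noncoding genes. The neighbours' median log2 level was 3.56 with neighbours of at least 1 FPKM only, and 1.43 to 1.53 without either library. No pair past the limit reversed, which the rule of the same order in both libraries fixes in advance. Snrpn to Ube3a, within the limit, was -0.01 as reported, 0.04 without replicate 1 and -0.06 without replicate 2. Length centring, other thresholds for the lists and scaling to equal sums were chosen after seeing the data. No paired analysis was possible because there is only 1 group. Absolute depth is unknown, so the counting error of members below 1 FPKM could not be computed and is not part of the values given.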

Other observations

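CG dinucleotides were counted in the RefSeq promoter windows of the members, 250 bases before to 50 after a start site on GRCm38.p6. The motif searched was CG, which reads the same on both strands, and the window with the most was kept for each gene. Of the 35 members, 29 had a window, with a median of 17 CG and a range from 0 to 45, beside a median of 8 over 27025 genes. Of the 29, 25 were above 8, the median over those 27025 genes, and protein-coding genes alone were not set beside them. The 6 members without a window were H19, Cdkn1c, Peg10, Sgce, Rtl1 and Impact. Grb10 had 45, Gnas 40, Zdbf2 38 and Igf2r 34, of which Zdbf2 was at only 2.24 FPKM. Among members below 1 FPKM, Phlda2 and Rasgrf1 had 26, Dio3 25 and Ascl2 23, while Slc22a18 had 2. Of the detected noncoding RNAs with a window, Rian had 0, Airn 3, Mirg 10 and Meg3 13. A count of CG is a description of the sequence and says nothing about methylation in these hearts.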
